A study of Mus musculus with 24 samples.

Results

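The genes examined here are those by which osteocytes, the cells embedded in mineralized bone, are commonly recognised: Gja1, Pdpn, Dmp1, Phex, Mepe, Sost, Cd44 and Bglap. A probe set was taken as a member when the platform annotation gave it exactly 1 gene symbol and that symbol was on the list. This rule found 15 probe sets for 7 of the 8 genes, out of 20380 probe sets for 12393 genes on the array. No probe set carried Bglap, which encodes osteocalcin, and osteocalcin is therefore not measured here. The log2 values were read on all arrays by labelled treatment and time and by the order of the columns in the deposited table, with a log2 value of 6 as the dividing level.

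The RNA came from MLO-Y4 cells, an osteocyte-like mouse cell line whose background is given as a mix of C57B1/6, BALB/c and DBA2. The flow arrays are from cells exposed for 2 h to fluid oscillating at 1 Hz, with shear stress peaking at 10 dyn/cm2, and the sham arrays are from paired cells kept in static chambers. Each treatment is labelled at 0, 2, 8 and 24 h after flow, with 3 arrays in each of the 8 groups and 24 arrays in all, while only the 2 h incubation appears in the methods of the paper. Flow and sham cells alike had been seeded 48 h earlier on glass slides coated with type I collagen, were about 60% confluent, and were kept in 2.5% calf serum and 2.5% fetal bovine serum. All arrays come from a single immortalized line, which was derived from mice carrying a large T antigen driven by the osteocalcin promoter. The methods speak of triplicates of flow and static cells without stating whether these were separate cultures, and a p-value here reflects the variation among the arrays, which could be technical.

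Osteocytes arise from osteoblasts that become surrounded by the matrix they lay down, and they stay connected through long dendritic processes joined by gap junctions. Connexin 43, the product of Gja1, is the main gap junction protein of bone cells, podoplanin (Pdpn, also called E11) is an early osteocyte protein needed for dendrite growth, and Cd44 encodes a hyaluronan receptor linked to the cytoskeleton. Dmp1, Phex and Mepe encode matrix proteins and an endopeptidase that act on mineralization and phosphate balance, and Sost encodes sclerostin, an inhibitor of Wnt signalling secreted by mature osteocytes. MLO-Y4 cells are known for dendritic shape, abundant connexin 43 and low expression of the markers of mature osteocytes.

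The promoters of the 4 members that lay above a log2 value of 6 are shown because the comparisons below turn on these genes, of which Cd44 and Pdpn were low on the same arrays and Phex was high on them. Each is the 250 bases before the RefSeq start on build GRCm38.p6, written 5′ to 3′ on the strand of the gene: Gja1 at chr10:56377050-56377299 (plus strand), Pdpn at chr4:143299565-143299814 (minus strand), Phex at chrX:157415287-157415536 (minus strand) and Cd44 at chr2:102901666-102901915 (minus strand). Capitals mark matches to the motifs searched on both strands, and letters outside a match are in lower case.
Gja1: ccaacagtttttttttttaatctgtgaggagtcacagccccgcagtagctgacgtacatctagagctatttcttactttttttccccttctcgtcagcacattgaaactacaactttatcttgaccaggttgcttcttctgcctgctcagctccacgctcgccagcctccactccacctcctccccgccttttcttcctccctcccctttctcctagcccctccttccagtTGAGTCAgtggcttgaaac
Pdpn: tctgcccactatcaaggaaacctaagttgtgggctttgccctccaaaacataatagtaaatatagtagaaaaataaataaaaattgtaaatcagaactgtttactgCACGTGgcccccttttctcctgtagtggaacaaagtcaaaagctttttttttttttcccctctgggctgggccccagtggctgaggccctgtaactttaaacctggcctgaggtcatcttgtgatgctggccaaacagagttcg
Phex: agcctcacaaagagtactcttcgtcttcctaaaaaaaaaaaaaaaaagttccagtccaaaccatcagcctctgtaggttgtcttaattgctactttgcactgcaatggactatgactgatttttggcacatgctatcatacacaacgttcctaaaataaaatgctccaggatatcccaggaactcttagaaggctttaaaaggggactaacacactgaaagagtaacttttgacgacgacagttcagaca
Cd44: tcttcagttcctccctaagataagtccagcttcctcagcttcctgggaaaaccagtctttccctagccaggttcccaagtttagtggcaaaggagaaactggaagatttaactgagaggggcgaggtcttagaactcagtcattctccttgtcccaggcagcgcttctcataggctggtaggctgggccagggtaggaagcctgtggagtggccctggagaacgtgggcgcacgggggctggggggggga
The motifs were the AP-1 site TGANTCA, the GC box GGGCGG, the TATA box TATAAA, the cyclic AMP response element TGACGTCA, the TEAD site GGAATG and the E-box CACGTG. They occurred in 6.75%, 32.7%, 12.4%, 1.55%, 12.6% and 6.02% of the 32851 promoters of the same length, and some can overlap each other. The Gja1 promoter held an AP-1 site that began 19 bases before the start, and the Pdpn promoter held an E-box that began 144 bases before it. The Phex and Cd44 windows held none of these letters. A match is a description of the letters and not a measured binding site.

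The authors deposited log2 values, which the submitters' processing notes attribute to RMA, a method that subtracts background, brings the arrays to a common distribution and summarises the probes behind every probe set. Over 22690 probe sets the values spanned 2.02 to 14.11, and array medians spanned 6.71 to 6.80. No 2 arrays held identical values. Array values are relative, so the level of a probe set is not set against the level of another, and fewer cells of a kind cannot be told apart from less RNA per cell.

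Of the member probe sets, 9 lay at or above a log2 value of 6 on all 24 arrays, and the other 6 lay below it on all 24 arrays. The background was 55.6% of all probe sets with 1 symbol above the limit on every array and 36.4% below it on every array. Gja1, Pdpn, Phex and Cd44 had at least 1 probe set above the limit, while Dmp1, Mepe and Sost had none. The same 4 genes were above a limit of 5 or of 7 on every array.

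Among the genes of the dendrites and the cell surface, Gja1 was the steadiest. Its leading probe set (1437992_x_at) ran from 12.89 to 13.09 over the 24 arrays, a range of 0.20 around a mean of 13.00. Another 3 Gja1 probe sets had means between 12.33 and 12.77, 1415801_at averaged 8.94, and 1438973_x_at averaged 5.69 and lay below 6 on every array. The 6 probe sets of this gene therefore fell on both sides of the limit. Pdpn, with 1 probe set (1419309_at), ran from 12.20 to 12.77 with a median of 12.60. The Cd44 probe set 1423760_at ran from 11.23 to 12.12, and the probe set 1452483_a_at ran from 8.60 to 9.85.

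The genes of mineral and phosphate handling and the Wnt inhibitor were mostly on the other side of the limit. Dmp1, whose acidic matrix protein binds mineral, ran from 2.66 to 2.998. Mepe, encoding a matrix phosphoglycoprotein, ran from 4.80 to 5.21, with 13 of the 24 arrays at or above 5. The Sost probe sets ran from 4.22 to 4.99 (1421245_at) and from 3.61 to 4.12 (1450179_at). Phex was split: 1421979_at ran from 7.73 to 9.17, the widest range of the 15 probe sets at 1.43, while 1450445_at ran from 3.63 to 4.30.

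**Figure D1:**
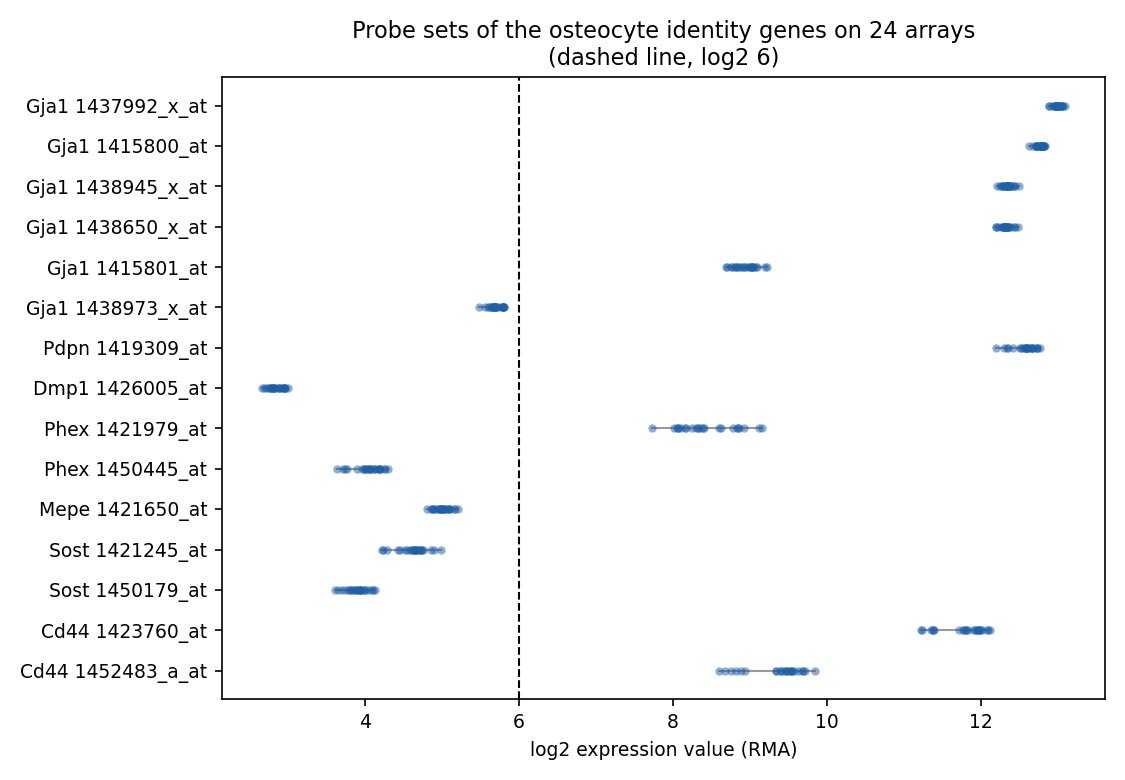
Log2 expression values (x axis) of the 15 probe sets of 7 osteocyte identity genes (rows), with 1 point per array for 24 arrays and a dashed line at log2 6. The points of each probe set lie wholly on 1 side of the line, 9 probe sets above it and 6 below it.

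The labelled treatments were compared first, to ask whether flow was followed by a change in these genes at any of the 4 times. With limma and Benjamini-Hochberg adjustment over 12393 genes, no member was called at an adjusted p under 0.05 at 0, 2, 8 or 24 h, where 0.0% of all genes were called at each time. The adjusted p of the members ran from 0.300 to 0.982 over the 4 times. At an unadjusted p under 0.05 there were no members at 0 h (14.0% of all genes), Cd44 and Dmp1 at 2 h (13.6% of all genes), Sost at 8 h (14.4% of all genes) and Pdpn and Cd44 at 24 h (15.5% of all genes). Flow and sham arrays did not overlap for 0 members at 0 h (19.1% of all genes), for Cd44 and Dmp1 at 2 h (18.4%), for 0 members at 8 h (12.9%) and for Pdpn at 24 h (19.8%). In these counts and tests each gene was read by its brightest probe set alone.

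Cd44 had the largest difference among the members at 2 h. Its values were 12.00, 11.90 and 12.09 on the flow arrays at 2 h, against 11.39, 11.35 and 11.83 on the sham arrays. All 3 flow arrays lay above all 3 sham arrays, and 2 sham arrays lay well below the other. The means were 12.00 ± 0.098 for flow and 11.52 ± 0.27 for sham (SD, n = 3 each), a difference of 0.47 (SE 0.18, limma adjusted p = 0.345). At 24 h the sign was opposite: the flow arrays had 11.82, 11.23 and 11.23 and the sham arrays 11.79, 11.99 and 11.77. The difference of -0.42 (SE 0.18, limma adjusted p = 0.300) came with 2 flow arrays at 11.23 and the other inside the sham range. At 8 h, 1 array of each treatment was low, at 11.38 for flow and 11.40 for sham, and the difference was -0.013.

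Pdpn had 12.55, 12.36 and 12.35 on the flow arrays at 24 h, against 12.68, 12.65 and 12.57 on the sham arrays. The groups did not overlap, and the difference was -0.21 (SE 0.097, limma adjusted p = 0.311). At 2 h its difference was 0.13, with 12.73, 12.58 and 12.61 on flow arrays and 12.42, 12.51 and 12.60 on sham arrays, where the highest sham array exceeded the lowest flow array.

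Phex had wide groups. At 8 h the flow arrays had 9.12, 8.84 and 8.60, and the sham arrays had 8.07, 7.73 and 9.17, so that 1 sham array stood more than 1 log2 unit above the other 2. The difference of 0.53 (SE 0.26, limma adjusted p = 0.361) had a sham SD of 0.75. At 24 h flow averaged 8.58 ± 0.42 and sham 8.08 ± 0.078 (SD, n = 3 each), and at 2 h flow averaged 8.31 ± 0.072 and sham 8.71 ± 0.30 (SD, n = 3 each). The differences were 0.50 at 24 h and -0.40 at 2 h, with adjusted p of 0.359 and 0.469. The difference of the brightest Phex probe set was thus negative at 2 h and positive at 24 h. Cd44 and Pdpn were positive at 2 h and negative at 24 h, and none of these differences passed the test. The Phex probe set below the limit (1450445_at) was higher on flow arrays at 2 h. It ran from 4.07 to 4.18 on flow arrays and from 3.63 to 4.05 on sham arrays. At 24 h its means were 4.02 for flow and 3.91 for sham.

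Gja1, read by its brightest probe set, moved least between the labelled treatments. Its 4 differences lay between -0.048 and 0.035, with adjusted p from 0.733 to 0.940, and its sign at 2 and 24 h depended on the scaling of the arrays. Other Gja1 probe sets had groups without overlap. On 1415801_at at 24 h, flow arrays ran from 8.70 to 8.81 and sham arrays from 8.87 to 9.19. At 8 h, flow arrays ran from 12.37 to 12.43 and sham arrays from 12.28 to 12.34 on 1438945_x_at. On 1438650_x_at at 8 h they ran from 12.322 to 12.432 and from 12.264 to 12.319. Dmp1, at the bottom of the measured range, averaged 2.94 ± 0.024 on flow arrays and 2.77 ± 0.11 on sham arrays at 2 h (SD, n = 3 each; limma adjusted p = 0.345). Sost was 4.43, 4.22 and 4.63 on flow arrays and 4.62, 4.89 and 4.67 on sham arrays at 8 h, a difference of -0.30 (SE 0.14, limma adjusted p = 0.331). On the other Sost probe set (1450179_at) the order at 8 h was opposite. It ran from 3.98 to 4.12 on flow arrays and from 3.70 to 3.95 on sham arrays. Mepe differed by 0.024 to 0.11 over the 4 times, with adjusted p of 0.545 or more.

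**Figure D2:**
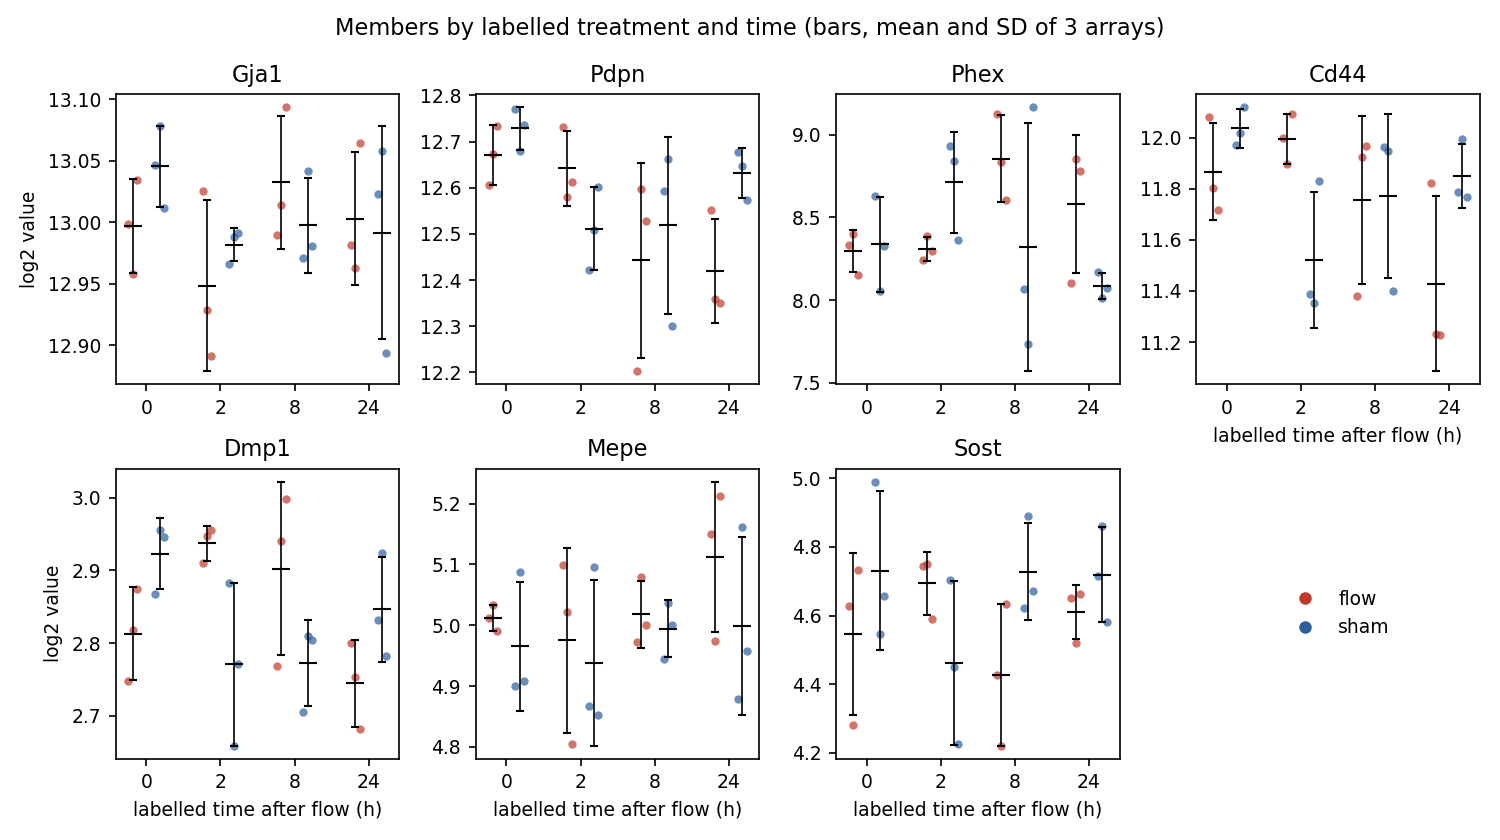
Log2 values (y axis, a separate scale per gene) of the 7 measured members by labelled time (x axis, h), with flow arrays in red left of sham arrays in blue, 1 point per array, and bars for the mean and SD of 3 arrays. Cd44, Pdpn and Phex have groups with 1 or 2 arrays far from the rest, such as the sham arrays of Phex at 8 h (8.07, 7.73 and 9.17).

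**Figure D3:**
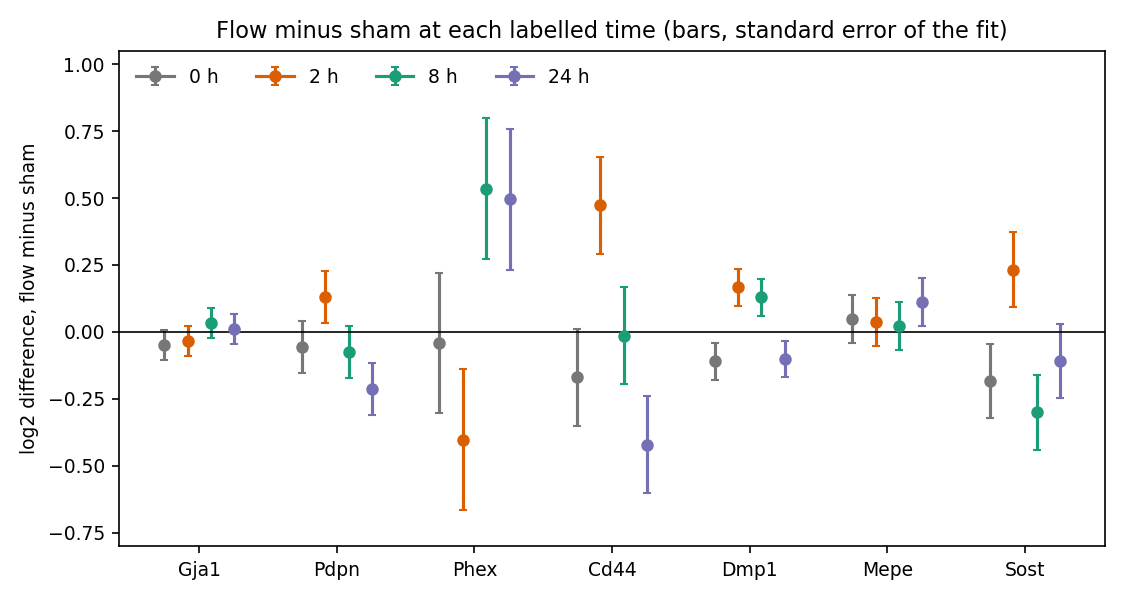
Log2 difference, flow minus sham (y axis), of the 7 measured members (x axis) at 0, 2, 8 and 24 h (colours), with bars for the standard error of the limma fit. The largest values are those of Phex at 8 h (0.53) and at 24 h (0.50), followed by Cd44 at 2 h (0.47), and no member was called.

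Tests over the whole time course gave no call for a member. In the moderated F-test over the 4 flow minus sham contrasts the lowest adjusted p was that of Dmp1 (0.167), followed by Cd44 (0.180) and Phex (0.252), with 0.0% of all genes called. Dmp1 and Cd44 had an unadjusted p under 0.05 in it, as did 23.3% of all genes, and in the test of the mean of the 4 contrasts no member did (4.79% of all genes). The test of whether the flow effect differed between times gave an adjusted p of 0.105 for Dmp1 and 0.114 for Cd44, again with 0.0% of all genes called and 27.3% at an unadjusted p under 0.05. Between the times, 51 genes were called among the sham arrays (0.412% of all genes) and 28 among the flow arrays (0.226% of all genes), and none of them was a member. The lowest member adjusted p was 0.265 among the sham arrays, for Cd44, and 0.260 among the flow arrays, for Cd44 and Pdpn. At an unadjusted p under 0.05 there were no members among the sham arrays (21.1% of all genes) and Cd44, Pdpn and Dmp1 among the flow arrays (17.1% of all genes).

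With array weights in the same limma fit, Cd44 and Dmp1 passed the threshold at 2 h, Phex, Dmp1 and Sost at 8 h and Cd44, Pdpn and Phex at 24 h. That fit called 18.8%, 18.7%, 25.4% and 19.1% of all genes at 0, 2, 8 and 24 h. The Cd44 differences were 0.56 at 2 h and -0.55 at 24 h in it, and the Phex difference at 8 h was 0.80.

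The arrays with outlying Cd44, Pdpn and Phex values stood at regular places in the deposited table. Earlier results of these data had shown a period of 8 columns, so the values were also read by position: columns 8 apart form 8 sets of 3 arrays, and adjacent sets form 4 pairs of 6 arrays each. No treatment or time is inferred from a position, and no p is given for these comparisons. The array most like each array in all genes (by correlation of gene-centred values) stood in the same pair for 24 of 24 arrays, in the same labelled group for 16 of 24 and in the same set of columns 8 apart for 2 of 24. Labels run along the column order, and inside a pair only neighbouring columns share a label. A nearest array of the same label was therefore also a neighbouring column, and these counts cannot tell label from position.

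The fourth pair (columns 7, 8, 15, 16, 23 and 24) set Cd44, Pdpn and Phex apart. These arrays are labelled sham at 2 h (replicates 1 and 2), sham at 8 h (replicate 3), flow at 8 h (replicate 1) and flow at 24 h (replicates 2 and 3), so that they come from 4 labelled groups and both treatments. Cd44 was 11.39, 11.35, 11.40, 11.38, 11.23 and 11.23 on these arrays in column order, against 11.72 to 12.12 with a median of 11.96 on the other 18. The means were 11.33 and 11.93, a 1.51-fold lower level on the fourth pair without overlap. The second Cd44 probe set averaged 8.78 (8.60 to 8.94) on the fourth pair and 9.53 (9.34 to 9.85) on the others, a difference of -0.75 and again without overlap.

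Pdpn was low on the same arrays, at 12.42, 12.51, 12.30, 12.20, 12.36 and 12.35, against 12.53 to 12.77 with a median of 12.63 on the other 18. The groups did not overlap and differed by -0.28. Phex was high there, at 8.93, 8.84, 9.17, 9.12, 8.86 and 8.78, against 7.73 to 8.84 with a median of 8.27 on the others, where 1 array (flow at 8 h, replicate 2, with 8.84) reached into the range of the fourth pair. The Phex means were 8.95 and 8.26, a 1.61-fold higher level on the fourth pair. The values of the fourth pair and of the other arrays did not overlap for 7.5% of all genes, 5.07% higher and 2.44% lower on the fourth pair, and of the 7 members Cd44 and Pdpn were among them, both lower. A larger absolute difference than that of Cd44 was seen for 2.04% of genes, than that of Phex for 1.45% and than that of Pdpn for 12.4%.

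The differences of the other members were smaller. Gja1 averaged 12.99 on the fourth pair and 13.00 on the other arrays, Mepe 5.02 and 5.00, and Sost 4.57 and 4.63. The dimmer Sost probe set (1450179_at) had the opposite sign, with 3.99 and 3.86. The Gja1 probe set 1415801_at averaged 8.84 and 8.97, and the differences of the remaining Gja1 probe sets lay between -0.034 and 0.011. Groups overlapped for each of these probe sets. Dmp1 averaged 2.76 on the fourth pair and 2.87 on the others, a difference of -0.11 with overlap. Within the blocks of 8 successive columns its difference was -0.097, -0.064 and -0.16, without overlap in the third block. The Phex probe set below the limit averaged 4.07 and 4.02, and did not show the difference of the probe set above it.

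The pattern was present in each block of 8 successive columns. The fourth pair minus the other arrays was -0.58, -0.57 and -0.65 for Cd44 in blocks 1, 2 and 3, and -0.23, -0.38 and -0.24 for Pdpn, without overlap in any block. For Phex it was 0.57, 0.96 and 0.52, with overlap in the third block alone. It was also present inside a label: among the 3 sham arrays at 8 h, replicate 3 had 11.40 for Cd44, 12.30 for Pdpn and 9.17 for Phex, against means of 11.96, 12.63 and 7.90 for the other 2. The Phex difference there, 1.27, was the largest. In sham at 2 h, flow at 8 h and flow at 24 h it was 0.52, 0.40 and 0.72. In the same order Cd44 differed by -0.46, -0.57 and -0.59, and Pdpn by -0.14, -0.36 and -0.20. Each of these comparisons set 1 array against 2.

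**Figure D4:**
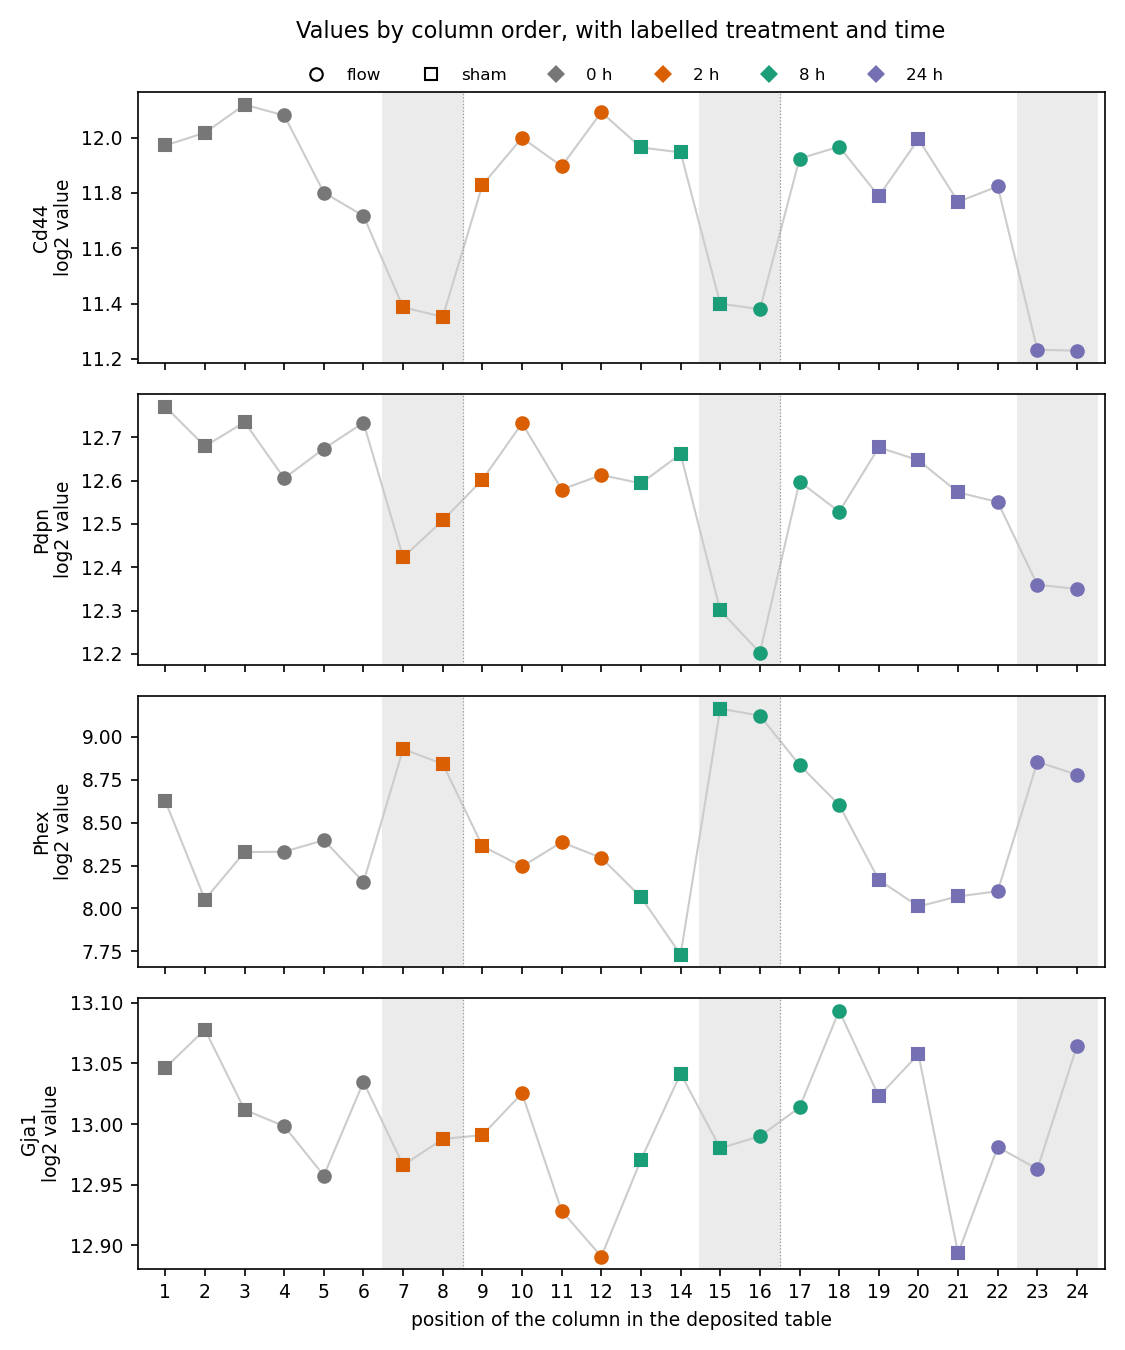
Log2 values (y axis) of Cd44, Pdpn, Phex and Gja1 on 24 arrays by position in the deposited table (x axis), with circles for flow and squares for sham, colours for the labelled time, grey bands for the fourth pair of column sets and dotted lines between blocks of 8 columns. Cd44 and Pdpn are lowest in every grey band (Cd44 11.23 to 11.40, Pdpn 12.20 to 12.51) and Phex is high in them (8.78 to 9.17), while Gja1 stays between 12.89 and 13.09.

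Among the first 3 pairs the members differed less. Cd44 averaged 11.95, 12.00 and 11.84, Pdpn 12.65, 12.64 and 12.63, and Phex 8.45, 8.25 and 8.09 on pairs 1, 2 and 3. No member was without overlap between the second and first pair (1.53% of all genes) or between the third and second pair (8.01%). Between the fourth pair and the third, 15.1% of all genes did not overlap, 8.79% higher and 6.29% lower on the fourth pair, among them Phex (0.86), Cd44 (-0.51) and Pdpn (-0.27). Inside the pairs, adjacent sets of 3 columns did not overlap for 11.6%, 8.92%, 9.71% and 8.58% of genes in pairs 1 to 4, and for 3 member values: Gja1 (0.078) and Sost (0.26) inside the third pair and Gja1 (0.044) inside the fourth. None of these 3 remained once each array was centred on its median, an alternative chosen after seeing the data.

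Measures of RNA quality were set beside this order. For beta-actin, the 3′ control probe set minus the 5′ one was, on the log2 scale, 0.224 to 0.262 on the fourth pair and 0.138 to 0.242 on the other 18 arrays, of which 2 lay inside the range of the fourth pair. The Gapdh difference was -0.189 to -0.158 on the fourth pair and -0.196 to -0.0743 on the others, of which 7 lay inside. With both measures as covariates in the limma fit, the flow minus sham difference changed sign for Cd44 and Pdpn at 0 h. It also changed sign for Pdpn and Phex at 2 h, with the values given in the closing section. The part of these measures in the fourth-pair values of Cd44, Pdpn and Phex was not tested.

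The comparison of flow with sham was repeated without the 6 arrays of the fourth pair, also an alternative chosen after seeing the data, which left 1 sham array at 2 h and 1 flow array at 24 h that were assumed to vary like the other groups. The Cd44 difference was then 0.17 at 2 h and -0.027 at 24 h, in place of 0.47 and -0.42. The Pdpn difference was 0.040 at 2 h and -0.081 at 24 h, and the Phex difference -0.055 at 2 h and 0.018 at 24 h, all smaller in size than with 24 arrays. At 8 h, where 2 flow and 2 sham arrays were left, Phex was 8.84 and 8.60 on flow arrays and 8.07 and 7.73 on sham arrays, a difference of 0.82 (SE 0.16, limma adjusted p = 0.0148). This was a call, in a fit that called 866 genes at 8 h, or 6.99% of all genes. The 2 flow arrays left at 8 h were columns 17 and 18, of the first pair, and the 2 sham arrays were columns 13 and 14, of the third. Treatment and column pair can therefore not be told apart at 8 h without the fourth pair. Phex averaged 8.45 on the first pair and 8.09 on the third. Leaving out sham at 8 h replicate 3 alone gave 0.96 for Phex (limma adjusted p = 0.0242), with 2.43% of all genes called. Leaving out sham at 8 h replicate 2 gave 0.24 (limma adjusted p = 0.775).

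The share of the variance between groups put both readings on 1 scale. For Cd44, 50.4% of the variance over the 24 arrays lay between the 8 labelled groups and 91.9% between the 8 sets of columns. Phex had 40.5% and 80.6%, Pdpn 53.1% and 73.7%, Dmp1 56.2% and 63.2%, Gja1 29.4% and 47.5%, and Mepe 22.8% and 32.4%. Sost, with 37.9% between labels and 27.9% between column sets, was the exception among the 7 members, each read by its brightest probe set. The shares were not corrected for the number of groups, so groups formed at random would also hold part of the variance. Labels run along the column order, so arrays of a label often lie in the same column pair. The share between labels therefore also holds part of the difference between column pairs. The SD within labelled groups was no smaller than that over all arrays for Gja1 (0.0529 and 0.0525) and Mepe (0.109 and 0.104). For Sost the SD within column sets was 0.195, against 0.192 over all arrays, and for Mepe it was 0.102, against 0.104. These shares therefore show no grouping by label for Gja1 and Mepe or by column set for Sost, and hardly any by column set for Mepe. A larger share between column sets was found for 65.5% of all genes and 73.7% of those with a mean of at least 6. Over all 15 member probe sets, 8 had the larger share between labels, among them both Sost probe sets and the Phex probe set below the limit (36.1% and 23.5%), and the median shares were 40.5% between labels and 32.4% between column sets. Over all genes the medians were 41.3% and 47.9%, and over the 7684 genes with a mean of at least 6 they were 45.6% and 60.3%. A larger column share than that of Cd44 was found for 1.24% of genes, than that of Phex for 11.0% and than that of Pdpn for 18.5%. The second Cd44 probe set had 90.1% between column sets, while the other 5 Gja1 probe sets had 14.7% to 31.9%, below their shares between labels.

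**Figure D5:**
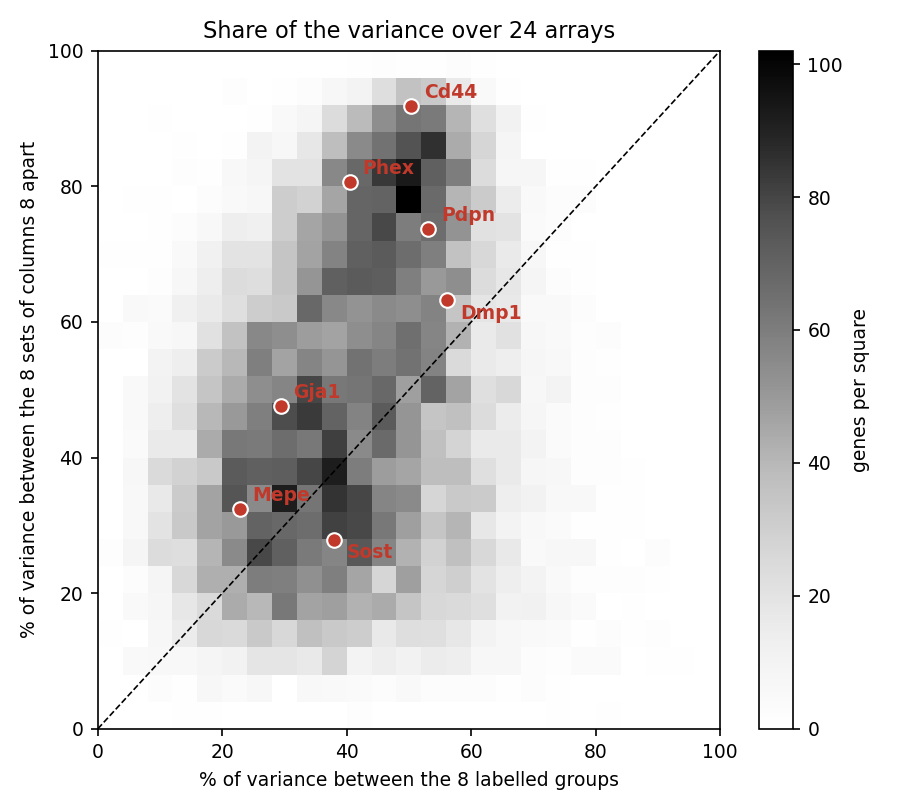
Percent of the variance over 24 arrays between the 8 labelled groups (x axis) and between the 8 sets of columns (y axis), with the number of genes per square in grey for 12393 genes and the 7 measured members in red; the dashed line marks equal shares. Cd44 (50.4% and 91.9%) lies near the top, and Sost (37.9% and 27.9%) is the 1 member below the line.

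Over the 24 arrays Pdpn and Cd44 varied together (Pearson r = 0.80), and Phex varied opposite to both (-0.73 with Pdpn and -0.69 with Cd44). The arrays form clusters, and within the 18 arrays outside the fourth pair the same correlations were 0.11, -0.061 and 0.10. Within the 6 arrays of the fourth pair they were -0.10, -0.67 and 0.75. Gja1 had r between -0.075 and 0.19 with these genes over 24 arrays. The points share arrays and their processing, and the values are descriptions.

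The genes whose pattern over the 24 arrays was most like Cd44 were Timm23 (r = 0.95), a subunit of the mitochondrial import channel, Sh3kbp1 (0.94), an adaptor of receptor endocytosis, and Map7d1 (0.94), and the most opposite was Grcc10 (-0.97). Those of Pdpn were Lgals3 (0.94), encoding the lectin galectin 3, Strap (0.92) and Memo1 (0.91), with Ttc3 (-0.91) most opposite. Those of Phex were Rtn3 (0.89), a reticulon of the endoplasmic reticulum, Pqlc3 (0.89) and Ctdsp2 (0.89), with Lyar (-0.89) most opposite. For Gja1 the closest were Rab31 (0.73), Rbm38 (0.73) and Fam102a (0.72), with Smpdl3b (-0.71) most opposite. Within the 18 arrays outside the fourth pair the 4 genes named for Cd44 had r of 0.62, 0.57, 0.89 and -0.76 with it, and within the 6 arrays of the fourth pair r of 0.77, -0.11, -0.67 and -0.84.

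Genes that work with the members were read from lists in the same fit, and no gene of any list was called at any time. As background for the level counts of all lists below, 7684 of the 12393 genes had a mean of at least 6. The share of genes above 6 on every array was not counted. Of 23 connexins and pannexins, 14 were measured: Gja1 and Panx1 lay above 6 on all arrays and the other 12 below it on all arrays. Panx1, a channel protein that releases ATP, ran from 7.34 to 7.88, and was named after its values were seen. The lowest p-values of the F-test over the 4 times belonged to Gjc1, Gjb5 and Gja5, each below 6 on all arrays. Of 10 measured partners of connexin 43, 8 were above 6 on all arrays. Cav1, the caveolin of membrane caveolae, differed by -0.35, 0.24, 0.31 and -0.44 at 0, 2, 8 and 24 h, without a call.

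Of 12 measured partners of podoplanin and CD44, 9 lay above 6 on all arrays. Nf2, encoding merlin, which binds the CD44 tail, averaged 8.45 on the fourth pair and 8.26 on the other arrays, and Mmp14, a membrane protease, 9.48 and 9.70. Of 9 measured genes of mineral matrix and phosphate, Slc20a1, a phosphate transporter, averaged 10.17 on the fourth pair and 10.43 on the others, and Ank, a pyrophosphate exporter, 9.18 and 9.67. Groups overlapped for each of these. Among 12 other genes linked to osteocytes, Hyou1, a chaperone of the endoplasmic reticulum, Capg, which caps actin filaments, and Irx5 had the lowest p-values of the F-test, with adjusted p of 0.137, 0.141 and 0.144.

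Of 13 measured osteoblast genes, 4 lay above 6 on all arrays and 9 below it on all arrays. Col1a1, a chain of type I collagen, averaged 7.68 on the fourth pair and 8.22 on the other arrays (-0.54, no overlap), and Atf4 12.90 and 12.74 (0.16, no overlap). Col1a2, the other chain of type I collagen, averaged 12.34 and 12.24 (0.10, with overlap), and the median difference of the 13 genes was 0.016. Among partners of connexin 43, Nedd4, a ubiquitin ligase, averaged 10.82 and 11.06 (-0.25, no overlap). Atf4 and Nedd4 were named after their values were seen. Without overlap were 1 higher and 1 lower of the 13 osteoblast genes, and 1 lower of the 10 partners of connexin 43. The share over all genes was 7.5%. No gene was without overlap among the connexins and pannexins or the partners of podoplanin and CD44. The same held for the genes of mineral matrix and phosphate and the other genes linked to osteocytes.

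Markers of other cell types were read on the same arrays. No macrophage, endothelial, chondrocyte or epithelial marker lay above 6 on all arrays, and 4, 5, 5 and 5 of the 6 in each list lay below it on all arrays. Of 6 muscle markers 2 lay above 6 on all arrays and 3 below it on all arrays. Of 4 measured adipocyte markers 1 lay above on all arrays and 2 below. Of 6 fibroblast markers 3 were above on all arrays, and S100a4, a calcium-binding protein, averaged 13.09 on the fourth pair and 13.59 on the others (-0.50, no overlap). It was the only marker in these cell type lists without overlap, against 7.5% of all genes. The log2 values of the fibroblast markers summed to 43.2 to 44.8 on the fourth pair and 43.6 to 46.6 on the others, and those of the 4 measured adipocyte markers to 18.6 to 20.7 and 19.7 to 22.1. Those of the 6 muscle markers summed to 33.8 to 35.6 and 33.2 to 35.0, and Acta1, skeletal muscle actin, averaged 9.32 and 8.41 with overlap. The median difference of the muscle markers was 0.031. The part of these markers in the values of Cd44, Pdpn and Phex was not tested.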

How the data were processed

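RNA of flow and sham MLO-Y4 cells was measured on 24 Affymetrix arrays, grouped by the titles in the labels. The authors deposited log2 expression values made with RMA per the submitters' processing notes, and the version is not given in the sources used here. The values were used as deposited, and 0 columns lacked a sample. RMA fits all arrays together, so a value on one array depends on the others, and the number of arrays limits the precision.

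Symbols of probe sets came from the annotation of the platform, and those with several symbols (691) were left out. Where a gene had several probe sets, the one with the highest overall mean stood for it. Using limma 3.58.1 under R 4.3.3, a linear model with 1 mean per labelled group was fitted over 12393 genes with moderated variances. A call required an adjusted p (Benjamini-Hochberg over these genes) under 0.05. The model was checked on simulated data with independent arrays. That check does not cover arrays that resemble each other by column pair. Column positions were described without a test, after counting columns 8 apart as a set.

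The named genes were all members, up to 3 genes of each list ranked by the F-test over the 4 contrasts (no list gene was called), and the 3 most like and 1 most opposite genes of each member with a mean of at least 6. Panx1, Atf4 and Nedd4 fall outside this rule and were named after their values were seen. The members, lists and tests were chosen with earlier results of these data known. Alternatives covered the probe sets per gene, replicate blocks, moderation, array weights, normalization, a filter on dim genes, the arrays fitted, RNA quality covariates, thresholds and each array left out. Promoters were matched by symbol to a RefSeq table for 8 of 8 members.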

Additional observations from a re-analysis of the deposited data

Results flagged for a closer look

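No member of the osteocyte identity list had flow arrays wholly above sham arrays at a time and wholly below them at another. Of the 39 genes named from the other lists 5 did (12.8%), against 9.12% of all genes. The 39 had been picked by the smallest p of the F-test over the same flow and sham labels. Their share can therefore not be compared with that of all genes. Col1a2 (type I collagen) differed by 0.15 at 24 h and -0.15 at 0 h, and Ctnnb1 (beta-catenin) by 0.082 at 8 h and -0.16 at 0 h. Irx5, a homeobox factor, differed by 0.43 at 8 h and -0.40 at 0 h. Nf2 differed by 0.19 at 0 h, 0.090 at 24 h and -0.22 at 2 h, and Slc20a1 by 0.24 at 2 h, -0.28 at 0 h and -0.32 at 24 h. The limma test of whether the flow effect differed between times gave adjusted p of 0.0883 for Col1a2, 0.134 for Ctnnb1, 0.0855 for Irx5, 0.0950 for Nf2 and 0.0784 for Slc20a1, so none passed.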

How the results depend on the processing

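The 28 member differences (7 genes at 4 times) were recomputed under the alternatives. Without an array left out they were past the threshold in 9 of 296 values, 8 with array weights and Phex at 8 h without the fourth pair of columns. Array weights called Cd44 at 2 and 24 h, Dmp1 at 2 and 8 h, Phex at 8 and 24 h, Sost at 8 h and Pdpn at 24 h, in fits that called 18.7%, 25.4% and 19.1% of all genes at 2, 8 and 24 h, and the cause was not tested. Of these 296 values 14 changed sign. Gja1 at 24 h became -0.060 with the mean of all probe sets, -0.021 with array weights, -0.0061 after quantile normalization, -0.061 after centring, -0.0036 with RNA quality covariates and -0.010 without the fourth pair, and Gja1 at 2 h became 0.036 after centring. Sost at 24 h became 0.039 with the mean of all probe sets, and Mepe became -0.0068 at 2 h and -0.027 at 8 h after quantile normalization. With RNA quality covariates Cd44 became 0.23 and Pdpn 0.13 at 0 h, and Pdpn became -0.047 and Phex 0.15 at 2 h. Leaving out each array of a time in turn changed the sign of 6 values, which ran from -0.18 to 0.10 for Phex at 0 h, -0.025 to 0.12 for Mepe at 2 h, -0.18 to 0.045 for Pdpn at 8 h, -0.0069 to 0.046 for Mepe at 8 h, -0.20 to 0.18 for Cd44 at 8 h and -0.037 to 0.045 for Gja1 at 24 h. The 1 call among these fits was Phex at 8 h without sham replicate 3.

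Counts over all genes moved more. Array weights called 2330, 2312, 3151 and 2361 genes at 0, 2, 8 and 24 h, 6024 in the F-test, 53 in the mean, 5955 for the difference between times, and 4675 and 5490 between times among sham and flow arrays. Without the fourth pair, 4 genes were called at 0 h, 866 at 8 h, 140 in the F-test, 468 for the difference between times and 59 between times among flow arrays. All probe sets gave 1 call at 0 h, and 198 and 209 between times among sham and flow arrays. At 2 h the mean of all probe sets and quantile normalization gave 1 each, centring gave 2 and an adjusted p of 0.1 gave 3. At 0.1 there were also 1407 for the difference between times, and 131 and 114 between times among sham and flow arrays. RNA quality covariates left 18 between times among sham arrays. Leaving out each array in turn gave 0 to 1 at 0 h, 0 to 117 at 2 h (highest without sham 2 h replicate 3), 0 to 672 at 8 h (without flow 8 h replicate 1), 0 to 278 at 24 h (without sham 24 h replicate 3), 0 to 1394 in the F-test, 0 to 2045 for the difference between times, and 14 to 410 and 8 to 470 between times among sham and flow arrays.

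By replicate number, 2 of 12 same-numbered flow and sham arrays had deviations that correlated above 0.1. The highest correlation of any flow and sham arrays was 0.40, for flow replicate 1 and sham replicate 3 at 8 h, both of the fourth pair. The deviations hold such differences between column pairs, so they cannot show whether the cultures were paired. With the replicate number as a block no member passed the threshold (lowest adjusted p 0.361), and 18 and 17 genes were called between times among sham and flow arrays, in place of 51 and 28. The member median of the share between labels was 62.0% without the second block of columns, and that between column sets 32.4% over every probe set, in place of 40.5% and 63.2%. The count of member values without overlap between adjacent column sets was 0 after centring. The differences of Cd44, Pdpn and Phex on the fourth pair kept their direction under 6 alternatives chosen after seeing the data, and the Phex difference was 0.36 with the mean of its probe sets.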
